A study of Mus musculus with 51 samples.

Results

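The comparison described here sets 3 arrays of lungs from C57BL/6 mice given crofelemer before methylene diphenyl diisocyanate (MDI) against 13 arrays of lungs from C57BL/6 mice given MDI without the drug, 16 arrays of the 51 in the series. The groups were chosen by the array titles, and all 22206 probe sets entered the comparison. Whole lung RNA was hybridised to a 1-colour array, and each value is a deposited signal on a scale read as log2. The mice were males 6 to 8 weeks old, and 1% MDI on the skin had sensitized all of them, those of the control groups included. The MDI groups then received reaction products of MDI with glutathione (GSH) through the nose on days 15, 16, 19 and 20, and lavaged lungs were collected 48 h after the last exposure. Crofelemer was given intranasally at 4 mg/kg, 4 h ahead of every exposure. A second pair of groups, 5 arrays of control solution with crofelemer and 6 arrays of control solution alone, shows the drug without inhaled MDI, the control solution being MDI and GSH that had been reacted separately. No group received crofelemer's vehicle as far as the labels say.

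MDI is a building block of polyurethane and a cause of occupational asthma. In sensitized airways, type 2 cytokines (interleukins 4, 5 and 13) turn airway epithelium towards mucus-producing goblet cells, draw in eosinophils through chemokines, and drive macrophages into an alternatively activated state marked by resistin-like and chitinase-like proteins. Crofelemer is a plant-derived proanthocyanidin oligomer that blocks the chloride channels CFTR and ANO1 and is used as an antidiarrhoeal.

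The 8 drug arrays stood apart from all 19 C57BL/6 arrays without the drug before any gene was considered. Array means over all probe sets lay between 7.448 and 7.469 with MDI and crofelemer, against 7.480 to 7.512 with MDI alone. Control solution gave 7.435 to 7.476 with crofelemer and 7.486 to 7.515 without. The groups did not overlap, and the difference with MDI was -0.0413 (2-sided exact permutation test, p = 0.00357, the smallest this design allows). The drug and any separate processing of the drug arrays cannot be told apart, so each drug effect below carries both. The labels name no separate culture of the tissue, litter or hybridisation day, and p-values measure the spread between these arrays. Markers of lung tissue were bright in all 4 C57BL/6 groups: Sftpc of alveolar type 2 cells lay at 19.31 to 19.49 with MDI and crofelemer, against 19.41 to 19.62 with MDI. In whole lung, fewer cells of a type and less RNA per cell cannot be told apart.

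**Figure D1:**
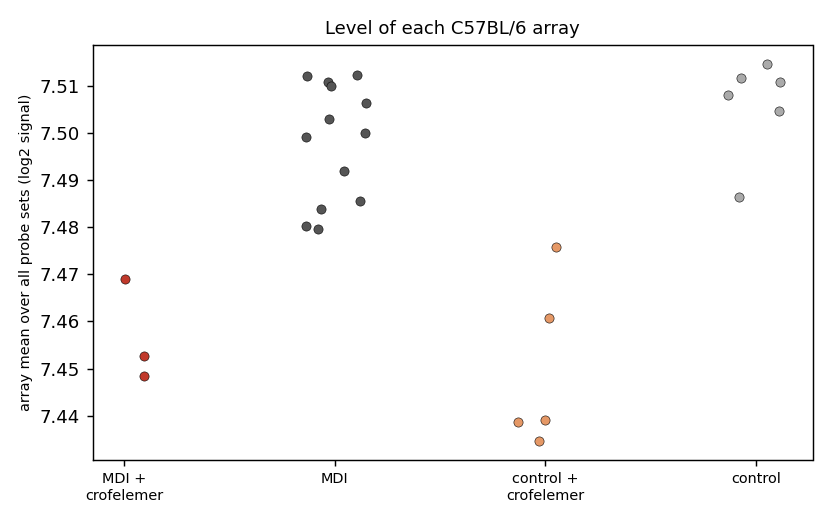
Mean log2 signal over all 22206 probe sets (vertical axis) for each C57BL/6 array (points) in the 4 groups. The 3 arrays of MDI with crofelemer lie at or below 7.469, under the lowest MDI array at 7.480, and the control solution groups are separated in the same way.

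Crofelemer with MDI went with 7232 called probe sets, 32.6% of those tested, of which 3336 were higher (15% of all tested) and 3896 were lower (17.5%), by limma with an adjusted p under 0.05. The median over all probe sets was 0.04. With each array centred on its own median, the called probe sets numbered 8199 and 59.4% of them were higher, against 46.1% as deposited. At least 2-fold changes numbered 1994, with 476 higher and 1518 lower. With the array number kept as a block, which rests the comparison on the 3 MDI arrays that share a number with a drug array, 4659 probe sets were called. Calls numbered 4993 without the first drug array, against 5958 and 6421 without the third and the second. Because so large a share of the array was called, a call alone says little about any 1 gene, and the size of the change is given beside it. Counts of list members with MDI below are to be read against the 15% higher and 17.5% lower of all probe sets. The gap between the groups and the same contrast under control solution are given for many genes but not for all. For Agr2 and Il4, for example, the contrast under control solution was fitted but is not given here, so no dependence on MDI is read from them.

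With control solution, 8669 probe sets were called for crofelemer (39%), 17.6% higher and 21.4% lower, and counts under control solution below are to be read against these shares. Both contrasts called 5154 probe sets in the same direction, 71.3% of the calls with MDI and 59.5% of those with control solution, and 19 in opposite directions. These contrasts share no array. Across probe sets, whose values are correlated and share any effect of the drug array set, the drug effects had a Pearson r of 0.833 and a Spearman rho of 0.753. The difference between the drug effects was called for 94 probe sets (0.423%), 40 higher (0.18%) and 54 lower (0.243%). The count was 20 without the second drug array with MDI, 8 within the first block of consecutive records, and 211 with the array number as a block in the fit of 49 arrays. The paired fit of the 12 C57BL/6 arrays numbered 1 to 3 called 4, and none of the differences named below was among them. In the fit of the 27 C57BL/6 arrays alone, the differences named below for Fcgbp, Slc26a4, Retnla, Chia1, Ccl8, Rnase2a, Alox15, Mmp12 and Themis also missed the threshold (adjusted p = 0.05 to 0.134). Within the first block of records the same genes other than Rnase2a missed it (0.0551 to 0.0928), and with array weights Fcgbp, Alox15 and Mmp12 did (0.0657 to 0.0956).

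**Figure D2:**
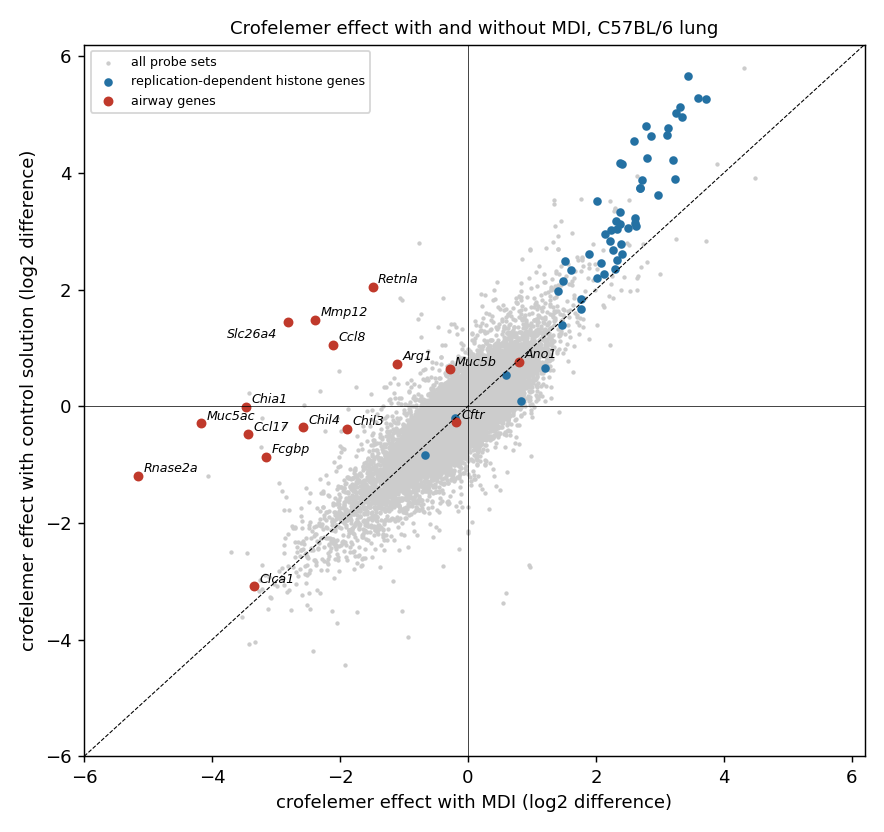
Crofelemer effect with MDI (horizontal, log2 difference between group means) against the crofelemer effect with control solution (vertical) for all probe sets (grey), 53 replication-dependent histone genes (blue) and 16 airway genes (red). Most histone genes lie up and to the right, near or above the dashed line of equal effects, while Rnase2a, Muc5ac, Chia1, Slc26a4 and Ccl8 lie far to the left of it. Clca1 lies close to the line.

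Genes of the mucous and type 2 airway response were much lower with MDI and crofelemer than with MDI alone. The 16 airway genes were chosen for that response with earlier results of these data known. Such a choice can favour genes high in the MDI arrays, which tilts the drug effect with MDI towards lower. Their counts therefore only describe the list. Of these 16 genes, 12 were lower, 1 was higher and 3 did not pass the test. The median of their 16 differences was -2.49, against 0.04 for all probe sets. In 9 of the 16 the groups did not overlap, which held for 13.9% of all probe sets. With control solution, 2 of the 16 were lower with the drug and 3 were higher, close to or below the shares of all probe sets. For 8 of the 16 the difference between the drug effects was itself called, in every case towards lower with MDI. That count fell to 2 without the first drug array with MDI and to 4 without the second, and it was 11 after centring or quantile normalization. With control solution and crofelemer, Rnase2a (3.91 to 5.32) and Muc5ac (4.90 to 6.14) lay near the lower end of the scale. The lower quartiles of those arrays were 4.71 to 4.87. A fall had little room there, so the size of the differences for Rnase2a and Muc5ac is uncertain. Without the drug, MDI itself had raised 14 of the 16 over control solution, with the exceptions of Cftr (0.16, adjusted p = 0.615) and Ano1 (0.12, adjusted p = 0.542). Those 14 values ran from 1.95 for Muc5b to 8.12 for Clca1, with 6.24 for Slc26a4, 5.63 for Retnla and 2.70 for Ccl17. These MDI effects share the MDI arrays with the drug effect and are given only beside it. The share of all probe sets called for MDI without the drug is not given here. The 14 of 16 therefore only describe a list chosen with earlier results known.

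Muc5ac, the inducible gel-forming mucin of goblet cells, had log2 signals of 6.74, 8.43 and 6.06 with MDI and crofelemer, against 9.13, 11.57 and 12.50 (lowest, median and highest) with MDI. Every drug array lay below every MDI array. The difference was -4.18 ± 0.50 (log2, SE), or 18.1-fold lower (limma adjusted p = 2.64e-09). With control solution the level was already low, at 5.72, 4.90, 5.63, 5.37 and 6.14 with crofelemer and 5.10 to 7.04 without (difference -0.29, adjusted p = 0.665). The drug effects differed by -3.88 (adjusted p = 0.00397), a size left uncertain by the low level under control solution. MDI alone had raised Muc5ac by 5.41 over control solution. Muc5b, the mucin that airways make without inflammation, had values of 11.45, 13.19 and 12.01 with MDI and crofelemer, against 11.08, 12.63 and 13.31 with MDI. These ranges overlapped fully and the difference was -0.29 ± 0.47 (adjusted p = 0.687).

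Clca1, a protein that goblet cells secrete into mucus, had values of 11.56, 15.97 and 15.00 with MDI and crofelemer, against 16.41, 17.27 and 19.00 with MDI. The groups did not overlap, but the first drug array lay far under the other two, and the difference of -3.35 ± 0.85 (adjusted p = 0.00166) was -2.04 without it (adjusted p = 0.126) and -2.48 with the array number as a block (adjusted p = 0.0932). With control solution the drug effect on Clca1 was -3.09 (adjusted p = 0.00175), and the difference between the drug effects was -0.26 (adjusted p = 0.96). Clca1 values with control solution and crofelemer were 6.06, 6.59, 6.41, 5.21 and 7.30. Most lay under the medians of those arrays (6.79 to 6.83), which may limit a fall there. How alike the 2 drug effects are in size is therefore uncertain. Fcgbp, a constituent of airway mucus, had values of 7.52, 9.61 and 8.37 with MDI and crofelemer, against 10.25, 11.78 and 12.66 with MDI. The difference was -3.16 (adjusted p = 9.25e-10), without overlap. Its drug effect with control solution was -0.87 and the difference between the drug effects was -2.29 (adjusted p = 0.0232; 0.148 without the first drug array). Agr2, a folding enzyme of the endoplasmic reticulum needed for mucin production, was lower by -2.23 ± 0.35 (adjusted p = 9.39e-07).

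The list of secreted mucins and mucous metaplasia held 21 measured genes, of which 10 were lower, 1 was higher and 10 did not pass the test (median -0.54). With the array number as a block, 6 were lower. The one that was higher was Muc1, a membrane mucin, at 0.89 (adjusted p = 2e-05), and it was also higher with control solution, by 1.10. With control solution 6 of the 21 were lower and 3 were higher.

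Among genes of anion transport, neither named target of crofelemer was called lower. Cftr had values of 9.87, 10.68 and 10.30 with MDI and crofelemer, against 9.66, 10.46 and 11.20 with MDI, and the difference of -0.18 ± 0.23 did not pass the test (adjusted p = 0.589). Ano1, the calcium-activated chloride channel, had values of 15.03, 14.98 and 15.00 with MDI and crofelemer, against 13.64, 14.20 and 14.65 with MDI. It was higher by 0.80 ± 0.15 (adjusted p = 2.57e-05), without overlap (0.0793 in the paired fit of 12 arrays), and higher by 0.77 with control solution. Slc12a2, the sodium-potassium-chloride carrier that loads epithelial cells with chloride, was higher by 0.64 (adjusted p = 0.000153), and by 0.87 with control solution.

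Slc26a4 encodes pendrin, an anion exchanger of airway epithelium that type 2 cytokines induce. Its values were 8.66, 8.21 and 10.60 with MDI and crofelemer, against 9.38, 12.13 and 14.26 with MDI. The third drug array lay inside the MDI range and the other two below it. The difference was -2.81 ± 0.63 (adjusted p = 0.000364). With control solution the sign was opposite: crofelemer gave 6.41, 8.02, 6.86, 6.46 and 8.13, against 4.80 to 6.92 without (difference 1.45, adjusted p = 0.0472). The drug effects differed by -4.26 (adjusted p = 0.0144; 0.0561 and 0.109 without the first and the second drug array with MDI). Of 18 chloride channel and anion transport genes, 5 were higher and 2 were lower with MDI (median 0.19), against 15% and 17.5% of all probe sets. The 2 lower ones were Clca1 and Slc26a4. Aqp5, a water channel, was higher by 1.08 (adjusted p = 2.02e-06) and the sodium channel subunit Scnn1a by 0.68 (adjusted p = 0.00015; 0.192 in the paired fit of 12 arrays). Both were also higher with control solution, by 0.83 and 0.48.

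**Figure D3:**
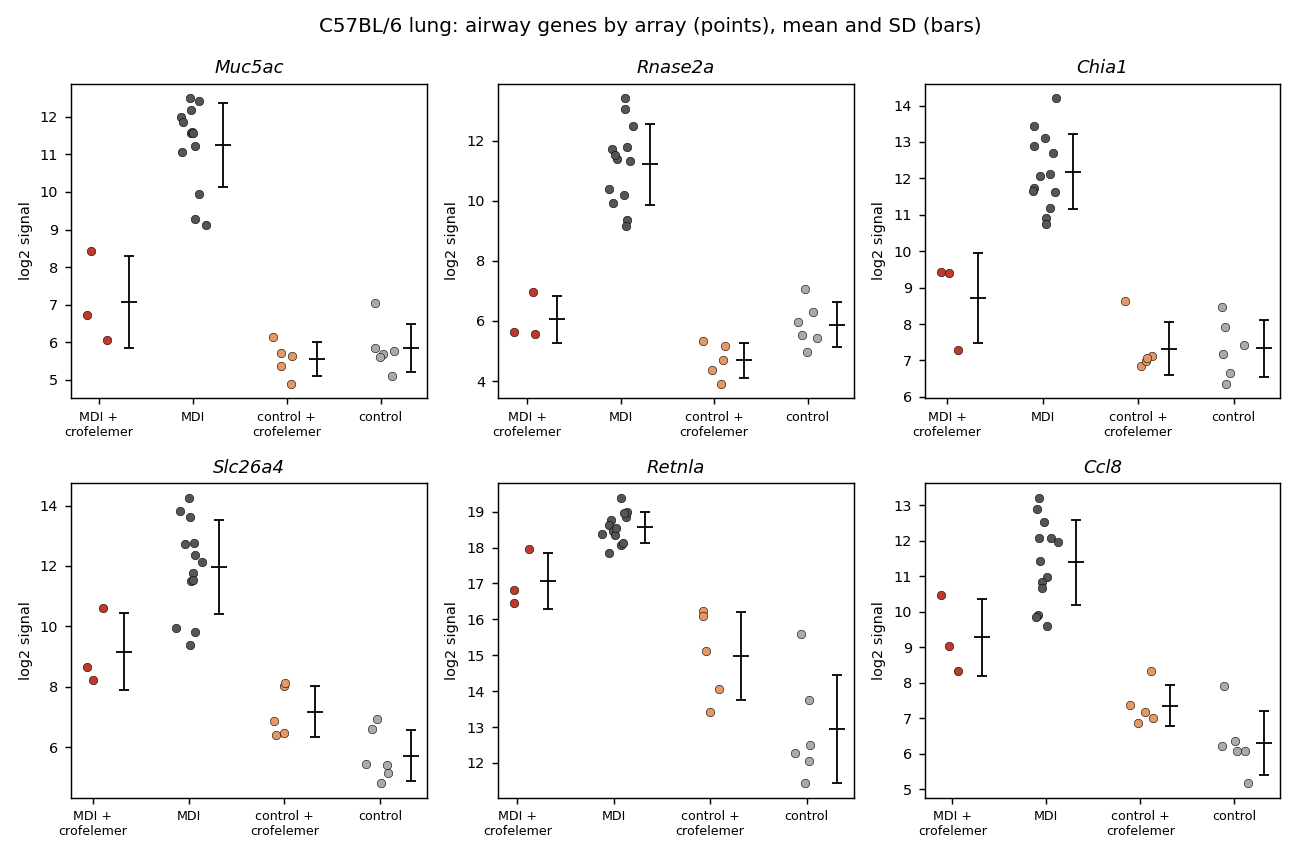
Log2 signal (vertical axes) of 6 airway genes on each C57BL/6 array (points) in 4 groups, with the group mean and SD as bars. For Muc5ac, Rnase2a and Chia1, the 3 arrays of MDI with crofelemer lie under all 13 MDI arrays, while for Slc26a4, Retnla and Ccl8 1 drug array lies inside the MDI range. Retnla and Slc26a4 are higher with crofelemer than without under control solution.

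Chitinases and their enzymatically inactive relatives bind or cut chitin and are abundant in type 2 inflammation. Chia1, the acidic chitinase, had values of 7.29, 9.43 and 9.41 with MDI and crofelemer, against 10.74, 12.07 and 14.21 with MDI. The groups did not overlap and the difference was -3.48 ± 0.48 (adjusted p = 5.27e-08). With control solution it was -0.01, and the drug effects differed by -3.47 (adjusted p = 0.00578; 0.0641 without the first drug array). Chil4 was lower by -2.59 (adjusted p = 1.49e-06) and Chil3 by -1.90 (adjusted p = 6.58e-07), both without overlap. For these 2 the drug effects differed by -2.23 and -1.51, which did not pass the test (adjusted p = 0.0576 and 0.0693) but passed it after centring (0.0417 and 0.0458) and after quantile normalization (0.0493 and 0.0499). Of 5 measured genes of this family, 3 were lower.

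Rnase2a, an eosinophil-associated ribonuclease, had the largest fall of any properly named gene. Its values were 5.56, 5.63 and 6.97 with MDI and crofelemer, against 9.17, 11.38 and 13.43 with MDI. All 3 drug arrays lay more than 2 log2 units below the lowest MDI array and close to the control solution arrays, which lay at 4.98 to 7.08. The difference was -5.16 ± 0.54, or 35.8-fold lower (adjusted p = 7.32e-11). With control solution crofelemer gave 4.71, 4.36, 3.91, 5.16 and 5.32 (difference -1.19, adjusted p = 0.0609). The drug effects differed by -3.97 (adjusted p = 0.00578), and the call held without any 1 of the 27 C57BL/6 arrays. The values with control solution lie near the lower end of the scale, so the size of this difference is uncertain.

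Of 11 eosinophil markers, 7 were lower and none was higher (median -1.09). With control solution 3 were lower and 1 was higher (median -0.30), and the difference between the drug effects was called for 1. Summed as the mean log2 signal of the list, the markers lay at 5.86 to 6.69 with MDI and crofelemer, against 7.02 to 9.24 with MDI and 5.88 to 6.46 with control solution alone. Il5ra, the receptor for interleukin 5, was lower by -1.87 (adjusted p = 9.51e-07), and by -1.47 with control solution. Ccl11 and Ccl24 are eotaxins, the chemokines that attract eosinophils. Ccl24 had values of 4.20, 3.77 and 4.32 with MDI and crofelemer, against 4.97, 7.20 and 11.01 with MDI, and was lower by -3.43 ± 0.68 (adjusted p = 7.33e-05). All 3 drug values lay below the lower quartile of their arrays (4.80 to 4.89), near the lower end of the scale, so the size of this difference is uncertain. Ccl11 was lower by -2.87 ± 0.48 (adjusted p = 3.38e-06), with the highest drug array, 11.12, inside the MDI range of 10.97 to 14.74. For neither eotaxin did the drug effects differ past the threshold (adjusted p = 0.059 and 0.0638 for Ccl24 and Ccl11). Epx, the eosinophil peroxidase, which falls outside the naming rule, did not pass the test (0.30).

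Ccl17, a ligand of the receptor CCR4 that brings in T helper 2 cells, had values of 9.00, 8.27 and 9.97 with MDI and crofelemer, against 10.54, 12.36 and 14.89 with MDI. The groups did not overlap, with a difference of -3.44 ± 0.54 (adjusted p = 1.05e-06). With control solution the drug effect was -0.48, and the difference between the drug effects just missed the threshold (-2.96, adjusted p = 0.0506). Ccl8, a monocyte and T helper 2 cell chemokine in the mouse, had values of 9.03, 8.33 and 10.46 with MDI and crofelemer, against 9.60, 11.42 and 13.21 with MDI. The difference was -2.11 ± 0.49 (adjusted p = 0.000543), with 1 drug array inside the MDI range. Under control solution Ccl8 was at 7.01, 7.37, 6.87, 7.18 and 8.32 with crofelemer, against 5.16 to 7.91 without, and the drug effects differed by -3.16 (adjusted p = 0.0183; 0.062 and 0.134 without the first and the second drug array). Of 30 chemokines, 9 were lower and 4 were higher with MDI (median -0.22), while with control solution 6 were lower and 8 higher. The 4 higher with MDI are near the 15% of all probe sets. With the array number as a block, or without the first or the third drug array, 8 were lower and 1 was higher.

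Macrophage genes did not move as one. Retnla, the resistin-like molecule of alternatively activated macrophages and airway epithelium, had values of 16.46, 16.82 and 17.95 with MDI and crofelemer, against 17.85, 18.54 and 19.39 with MDI. Only the third drug array reached the MDI range. The difference of -1.49 ± 0.50 passed the test (adjusted p = 0.018) but not without the first (0.158) or the second drug array (0.0826), nor with the array number as a block (0.144). With control solution Retnla was higher with the drug, at 14.07, 16.23, 13.41, 15.13 and 16.08, against 11.43 to 15.58 (difference 2.05, adjusted p = 0.000452). The drug effects differed by -3.54 (adjusted p = 0.00922), and by -3.23 and -3.41 without the first and the second drug array with MDI, just missing the threshold (adjusted p = 0.0548 and 0.0541).

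Of 19 genes of alternative activation, 11 were lower and 2 were higher (median -0.997), against 3 lower and 5 higher with control solution. Alox15, the lipoxygenase that makes oxidised lipid mediators, was at 6.90, 7.26 and 8.37 with MDI and crofelemer, against 9.27, 10.63 and 12.40 with MDI. It was lower by -3.24 ± 0.41 (adjusted p = 1.1e-08), without overlap, and the drug effects differed by -2.54 (adjusted p = 0.0261; 0.116 and 0.126 without the first and the second drug array). Cd209a, a lectin of dendritic cells and macrophages, was lower by -2.32 with MDI and by -1.80 with control solution. Il4ra, the receptor chain shared by interleukins 4 and 13, was higher by 1.29 (adjusted p = 7.97e-07), and by 1.05 with control solution. Arg1, arginase 1, overlapped between the groups (difference -1.10, adjusted p = 0.145), although it passed with the array number as a block (-1.90, adjusted p = 0.0289). Mmp12, macrophage elastase, was lower by -2.39 ± 0.67 (adjusted p = 0.00426; 0.0811 without the first drug array), and its drug effects differed by -3.87 (adjusted p = 0.0361), a call lost in 8 of the 27 fits that left out 1 array. In the paired fit of 12 arrays the drug effects with MDI on Mmp12 and Il4ra missed the threshold (adjusted p = 0.09 and 0.0832).

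Of 16 type 2 cytokine and receptor genes, 5 were lower and 2 were higher. The 2 higher are near the 15% of all probe sets. Il4 was lower by -1.38 (adjusted p = 0.00014), with values of 4.54, 4.15 and 4.68 with MDI and crofelemer, against 4.82, 5.77 and 7.08 with MDI. These levels are near the lower end of the scale. Socs3, an inhibitor of cytokine signalling, was higher by 1.23, and by 1.39 with control solution.

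Interleukins 4 and 13 act through STAT6, which binds the letters TTC and GAA with any 4 bases between them. The 250 bases before the start of transcription were searched (RefSeq, build GRCm38.p6). This motif, read on both strands and palindromic, occurred in 2 of 13 promoters (15.4%), which belong to 12 airway genes. It occurred in 5.85% of the 32851 promoters used here, which do not cover every chromosome. Entries for Muc5ac, Clca1, Muc5b and Arg1 were not used here. Both matching promoters are shown because their genes fell with the drug, with the match in capitals, 5′ to 3′ on the plus strand. The match lies at -145 to -136 before the start in Retnla (chr16:48842359-48842608) and at -154 to -145 in Ccl17 (chr8:94810203-94810452).
Retnla: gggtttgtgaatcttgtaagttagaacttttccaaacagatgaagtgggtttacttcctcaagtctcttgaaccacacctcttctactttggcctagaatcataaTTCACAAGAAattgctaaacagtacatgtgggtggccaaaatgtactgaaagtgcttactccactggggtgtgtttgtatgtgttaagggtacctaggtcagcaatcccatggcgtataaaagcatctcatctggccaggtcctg
Ccl17: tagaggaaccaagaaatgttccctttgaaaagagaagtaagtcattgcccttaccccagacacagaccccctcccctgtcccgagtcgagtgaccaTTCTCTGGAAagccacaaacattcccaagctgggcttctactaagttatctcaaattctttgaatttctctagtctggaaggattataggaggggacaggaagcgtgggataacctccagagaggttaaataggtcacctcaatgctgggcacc

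Outside the airway genes, 4 further genes whose drug effects differed were singled out after their values were seen or through a list. Scin, an actin-severing protein, had values of 6.46, 6.99 and 7.21 with MDI and crofelemer, against 7.83, 8.72 and 9.72 with MDI. It was lower by -1.88 ± 0.23 (adjusted p = 4.69e-09), with a value of -0.05 under control solution (adjusted p = 0.874), and the drug effects differed by -1.83 (adjusted p = 0.00344). Pla2g4c, a phospholipase A2 that releases fatty acids from membranes, was lower by -2.02, against 0.60 with control solution (difference -2.62, adjusted p = 0.00397; 0.0681 without the second drug array). Themis, a signalling protein of developing and mature T cells, was lower by -1.93, against -0.37 with control solution (difference -1.56, adjusted p = 0.0144; 0.0657 without the first drug array). Igfbp3, a binding protein of insulin-like growth factors, ran the other way: it was lower by -1.03 with MDI (adjusted p = 0.00124; 0.169 in the paired fit of 12 arrays) and by -3.51 with control solution, so the difference was 2.48 (adjusted p = 9.77e-05). Its values were 6.94, 7.79 and 6.77 with MDI and crofelemer, against 7.35 to 8.93 with MDI, and 6.32 to 6.64 with control solution and crofelemer, against 9.40 to 10.68 with control solution.

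The genes named from here on had drug effects of the same sign with and without MDI. Tnc, the matrix glycoprotein tenascin C made in wound repair, had the largest rise of any properly named gene. Its values were 14.49, 12.90 and 14.59 with MDI and crofelemer, against 8.33, 9.42 and 10.81 with MDI. No array overlapped, and the difference was 4.32 ± 0.43, or 19.9-fold higher (adjusted p = 1.67e-11). With control solution Tnc was at 14.46, 15.37, 13.84, 15.49 and 14.65 with crofelemer, against 8.30 to 10.18 without (difference 5.79). Gpnmb, a membrane glycoprotein of lipid-laden macrophages, had values of 13.70, 13.77 and 13.95 with MDI and crofelemer, against 9.02, 9.81 and 11.07 with MDI. It was higher by 3.89 ± 0.32, and by 4.16 with control solution. It belongs to a list of lipid-handling macrophage genes, of which 4 of 13 were higher and 2 were lower (2 and 1 without the first drug array). The 2 lower are near the 17.5% of all probe sets. Cd36, a fatty acid receptor of the same list, was lower by -1.79 (adjusted p = 1.25e-10), and by -2.05 with control solution. Ntrk2, a neurotrophin receptor, was higher by 3.72, and by 2.84 with control solution.

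Of 22 fibroblast and matrix genes, 10 were higher and 2 were lower (median 0.64), with 15 higher and 3 lower under control solution. With the array number as a block, 6 were higher. Col1a2, a chain of type I collagen, was higher by 1.71 (adjusted p = 5.12e-07), and Fn1, fibronectin, by 1.51 (adjusted p = 3.76e-06). Postn, the matrix protein periostin that interleukin 13 induces in airways, went opposite to its list. Its values were 11.00, 11.54 and 11.39 with MDI and crofelemer, against 13.90, 14.91 and 15.46 with MDI, a difference of -3.45 ± 0.21 (adjusted p = 2.42e-18) without overlap. It was lower by -2.51 with control solution, and the drug effects did not differ past the threshold (-0.94, adjusted p = 0.144).

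**Figure D4:**
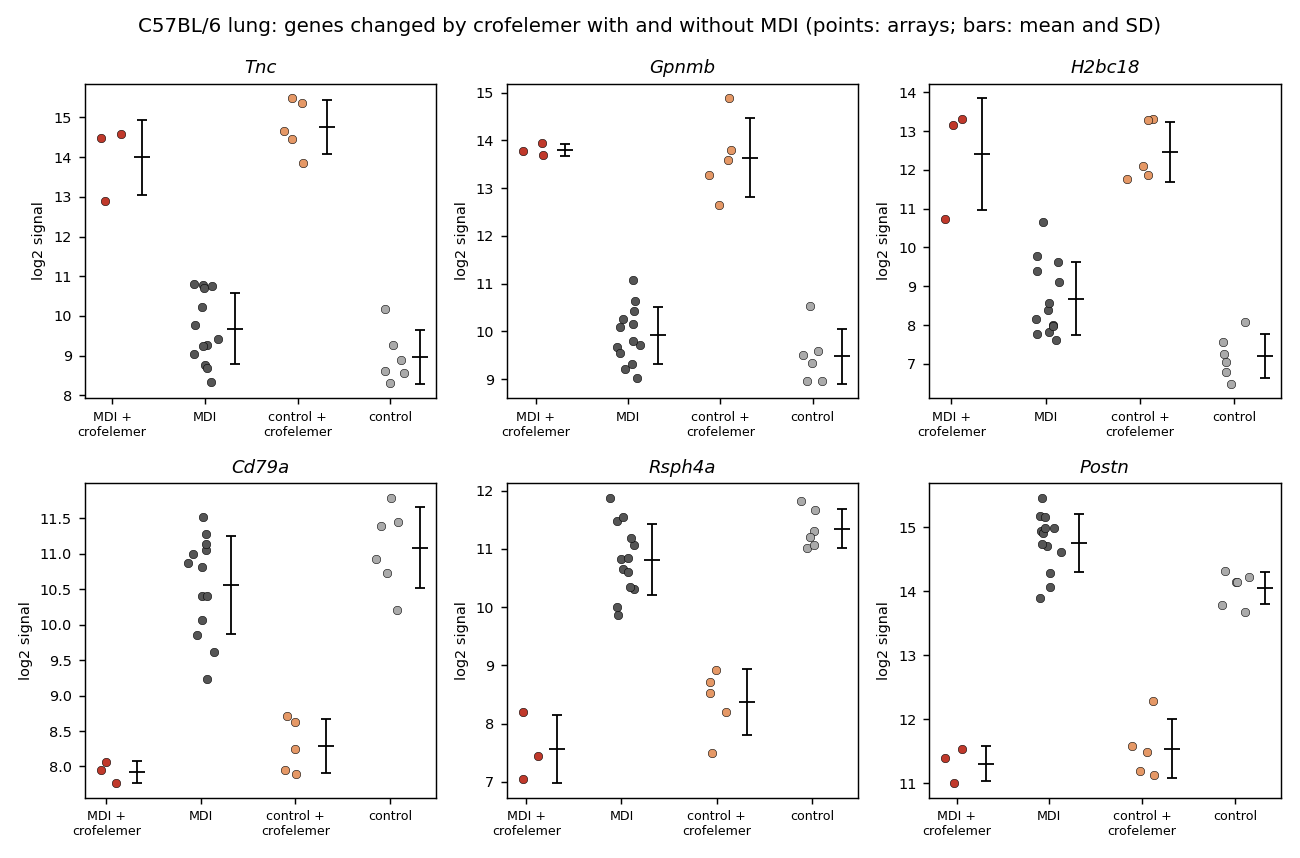
Log2 signal (vertical axes) of 6 genes on each C57BL/6 array (points) in 4 groups, with the group mean and SD as bars. In Tnc, Gpnmb and H2bc18 the arrays with crofelemer lie above those without it, and in Cd79a, Rsph4a and Postn below, under MDI and control solution alike.

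Replication-dependent histone genes supplied 9 of the 12 largest rises among properly named genes. They encode the core and linker histones made in S phase, and their messages end in a stem-loop instead of a poly(A) tail. Gathered after the values were seen, 53 such genes gave 51 higher, 1 lower and 1 not called (median 2.37). With control solution 50 were higher and the median was 3.10. The difference between the drug effects was called for 6 of the 53, against 0.423% of all probe sets. All 6 were H2ac genes with the smaller rise under MDI. That count was 18 with the array number as a block over 49 arrays. It was 0 without the second drug array and in the paired fit of 12 arrays. Medians by family with MDI were 2.07 for H1f, 2.41 for H2ac, 2.24 for H2bc, 2.96 for H3c and 2.33 for H4c. H2bc18 had values of 13.32, 10.74 and 13.16 with MDI and crofelemer, against 7.61, 8.39 and 10.66 with MDI, and was higher by 3.72 ± 0.46 (adjusted p = 5.55e-09). The second drug array was the lowest of the 3 here and just above the highest MDI array. It was also the lowest of the 3 for H1f1 (8.73 against 11.44 and 11.10), H2ac15 (13.50 against 15.77 and 15.51), H3c10, H3c6, H3c11, H3c7, H3c8 and H2ac8, whose differences lay between 3.13 and 3.59. In 34 of the 53 the groups did not overlap, which held for 13.9% of all probe sets. Histone paralogs are near-identical in sequence, and H3c14 and H3c15 had identical values on every array, so single members are uncertain.

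The octamer ATTTGCAT, a binding sequence of OCT1 long known from H2B promoters, was searched on both strands in the same 250-base windows. It occurred in 6 of 13 H2bc promoters and in 6 of 13 H2ac promoters. It occurred in 0 of 4 H1f, 0 of 8 H3c and 0 of 10 H4c promoters, against 1.60% of the same 32851 promoters. H2bc and H2ac genes often share 1 divergent promoter, so the 2 counts are not independent. The promoter of H2bc18, the histone gene with the largest rise, is shown with the octamer in capitals, at -48 to -41 (chr3:96269450-96269699, plus strand, 5′ to 3′).
H2bc18: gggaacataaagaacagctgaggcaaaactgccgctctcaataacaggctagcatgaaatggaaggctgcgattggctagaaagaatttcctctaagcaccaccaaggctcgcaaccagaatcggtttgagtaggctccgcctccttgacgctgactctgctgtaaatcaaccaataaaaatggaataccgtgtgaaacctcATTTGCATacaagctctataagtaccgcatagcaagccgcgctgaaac

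Of 21 proliferation genes, 12 were higher and none was lower with MDI (median 1.02), and 21 of 21 were higher with control solution (median 1.79). With the array number as a block over all 49 arrays 8 were higher, and 0 in the paired fit of 12 arrays. Plk1, a mitotic kinase, had values of 12.36, 10.11 and 11.89 with MDI and crofelemer, against 7.68, 8.93 and 10.38 with MDI (2.64 ± 0.46, adjusted p = 8.84e-06). The second drug array lay inside the MDI range. Mcm5, a subunit of the replicative helicase, was higher by 1.79, and Rrm2, the small subunit of ribonucleotide reductase, by 1.95. In the paired fit of 12 arrays these 3 missed the threshold (adjusted p = 0.0526 for Plk1, 0.0635 for Mcm5 and 0.116 for Rrm2).

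Markers of B cells and natural killer cells were lower with the drug under both exposures. Of 12 B cell and plasma cell markers, 10 were lower with MDI (median -1.42) and 9 with control solution (median -1.51). Their mean log2 signal lay at 6.07 to 6.50 with MDI and crofelemer, against 7.11 to 8.20 with MDI. Cd79a, a signalling chain of the B cell receptor, had values of 7.95, 8.07 and 7.76 with MDI and crofelemer, against 9.23, 10.81 and 11.52 with MDI. It was lower by -2.63 ± 0.29 (adjusted p = 2.64e-10), and by -2.80 with control solution. Jchain, which joins immunoglobulin chains into polymers in plasma cells, was lower by -3.71 ± 0.48 (adjusted p = 1.71e-08), with values of 5.90, 7.47 and 6.35 against 8.78 to 11.89 with MDI.

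Of 10 natural killer cell markers, 8 were lower with MDI and 10 with control solution. Gzma, granzyme A, was lower by -2.51, and by -2.72 with control solution. Klrk1, an activating receptor, was lower by -1.20, and by -1.41 with control solution. Of 13 T cell markers 4 were lower, led by Cd3g, a chain of the T cell receptor complex, at -2.26 (adjusted p = 1.79e-07), and 9 did not pass the test. With control solution 3 of the 13 were lower, near the 21.4% of all probe sets. Of 14 dendritic cell markers 7 were lower and 1 was higher, and 3 were lower with the array number as a block or without the first drug array.

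Of 10 genes of MHC class II presentation, 7 were lower with MDI (median -0.98) and 2 with control solution. H2-Ab1, a class II chain, had values of 14.70, 15.20 and 14.58 with MDI and crofelemer, against 15.30, 16.37 and 16.82 with MDI (-1.26 ± 0.26, adjusted p = 0.000101). With control solution it did not pass the test (-0.43, adjusted p = 0.158), and the difference between the drug effects was not called either (-0.83, adjusted p = 0.315). H2-Ob, which restrains peptide loading in B cells, was lower by -2.18 with MDI and by -2.52 with control solution.

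Of 25 interferon-stimulated genes, 8 were lower and 1 was higher with MDI, and 18 were lower with control solution. Mndal and Ifi209, DNA-binding proteins of the interferon-inducible p200 family, were lower by -3.26 ± 0.19 (adjusted p = 3.48e-19) and -3.53 ± 0.27 (adjusted p = 3.4e-15). Mndal had values of 8.85, 9.70 and 9.33 with MDI and crofelemer, against 11.89, 12.61 and 13.04 with MDI, and the groups were more than 2 log2 units apart. With control solution these genes were lower by -3.17 and -3.61. Genes of this family are close paralogs, so the assignment to single members is uncertain. Ifit1, an antiviral RNA-binding protein, was lower by -1.33 (adjusted p = 1.39e-05; 0.138 in the paired fit of 12 arrays), and by -2.21 with control solution.

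Granulocyte and mast cell markers were mixed. Of 17 neutrophil markers 3 were higher and 1 was lower with MDI, and 2 were higher and 6 lower with control solution. The 3 higher are near the 15% of all probe sets, and 1 was higher without the first or the third drug array or with the array number as a block. Retnlg, a resistin-like protein of neutrophils, was lower by -2.76, and Ltf, lactoferrin, was higher by 2.23 (adjusted p = 0.00139). Of 13 mast cell and basophil markers 6 were lower and 1 was higher, with Cpa3, the mast cell carboxypeptidase, at -1.78 (adjusted p = 2.31e-06). Of 16 acute inflammatory cytokine genes 3 were higher and 1 was lower, close to the share of all probe sets, and 1 was higher without the first or the third drug array. Tnf, tumour necrosis factor, was higher by 1.74 with MDI and by 1.39 with control solution.

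Cilia, vessel and xenobiotic genes were lower under both exposures. Of 14 ciliated cell markers, 10 were lower and 1 was higher with MDI (median -1.02), and 11 were lower with control solution. Rsph4a, a radial spoke protein of motile cilia, had values of 7.04, 8.20 and 7.44 with MDI and crofelemer, against 9.86, 10.83 and 11.88 with MDI. It was lower by -3.26 ± 0.29, and by -2.98 with control solution. Ccdc39, which sets the spacing of ciliary arms, was lower by -2.03, and by -2.58 with control solution. Of 19 endothelial markers 11 were lower and 1 was higher, and 6 were lower with the array number as a block. Pecam1, an adhesion molecule of vessel walls, was lower by -1.08, and Lyve1, a receptor of lymphatic vessels and some macrophages, by -2.88.

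Of 18 genes of xenobiotic metabolism, 10 were lower and none was higher with MDI (median -1.14), and 16 were lower with control solution (median -1.87). Fmo1, a flavin monooxygenase, was lower by -1.86, and Ces1d, a carboxylesterase, by -1.59. Gsta3, a glutathione transferase, was lower by -2.47, and Hmox1, haem oxygenase 1, was higher by 1.55 (adjusted p = 0.000177; 0.196 in the paired fit of 12 arrays). Tnnt2, cardiac troponin T, was lower by -3.42, with values of 6.87, 9.88 and 7.74 with MDI and crofelemer, against 10.26 to 12.54 with MDI. Of 15 heart and skeletal muscle markers 2 were lower with MDI, 7 without the second drug array, and 9 with control solution. The 2 with MDI are near the 17.5% of all probe sets. The list's mean log2 signal lay at 6.82 to 8.52 with MDI and crofelemer, against 7.53 to 9.35 with MDI, and the part of muscle carried over with the lung in these values was not tested.

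Of 16 alveolar type 2 cell genes, 7 were higher and 4 were lower, but 8 were higher and 0 lower without the first drug array, and 2 were lower without the third. In the fit of 49 arrays with array number as a block, 6 were higher and 1 was lower. Napsa, an aspartic protease that processes surfactant proteins, was higher by 1.24 (adjusted p = 1.88e-08), and by 1.03 with control solution. Of 20 glucocorticoid-responsive and circadian genes 7 were higher and 2 were lower, and 3 were higher with the array number as a block. Per2 and Bhlhe41, repressors of the circadian clock, were higher by 1.66 and 1.73, and Sgk1, a kinase induced by corticosteroids, by 1.25. With control solution these 3 were higher by 1.85, 1.23 and 0.90. The hour of tissue collection is not given in the labels, and its part in these values was not tested.

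Bright housekeeping genes were lower with the drug as well. Of 12 ribosomal protein genes 9 were lower and none was higher (median -1.02), and of 15 genes of mitochondrial respiration 12 were lower and none was higher (median -0.99). The counts with control solution were 9 and 11. Rpl5 was lower by -1.53 with MDI and by -1.48 with control solution, and Uqcrb, a subunit of respiratory complex III, by -1.50 and -1.60. Hsp90b1, a chaperone of the endoplasmic reticulum, was lower by -1.91 (adjusted p = 2.15e-13). Of the 11068 brighter probe sets, 3302 were called lower and 1980 higher, and of the 11138 dimmer ones 594 were called lower and 1356 higher. The calls thus leaned towards lower among bright probe sets and towards higher among dim ones, and what set this lean was not tested.

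**Figure D5:**
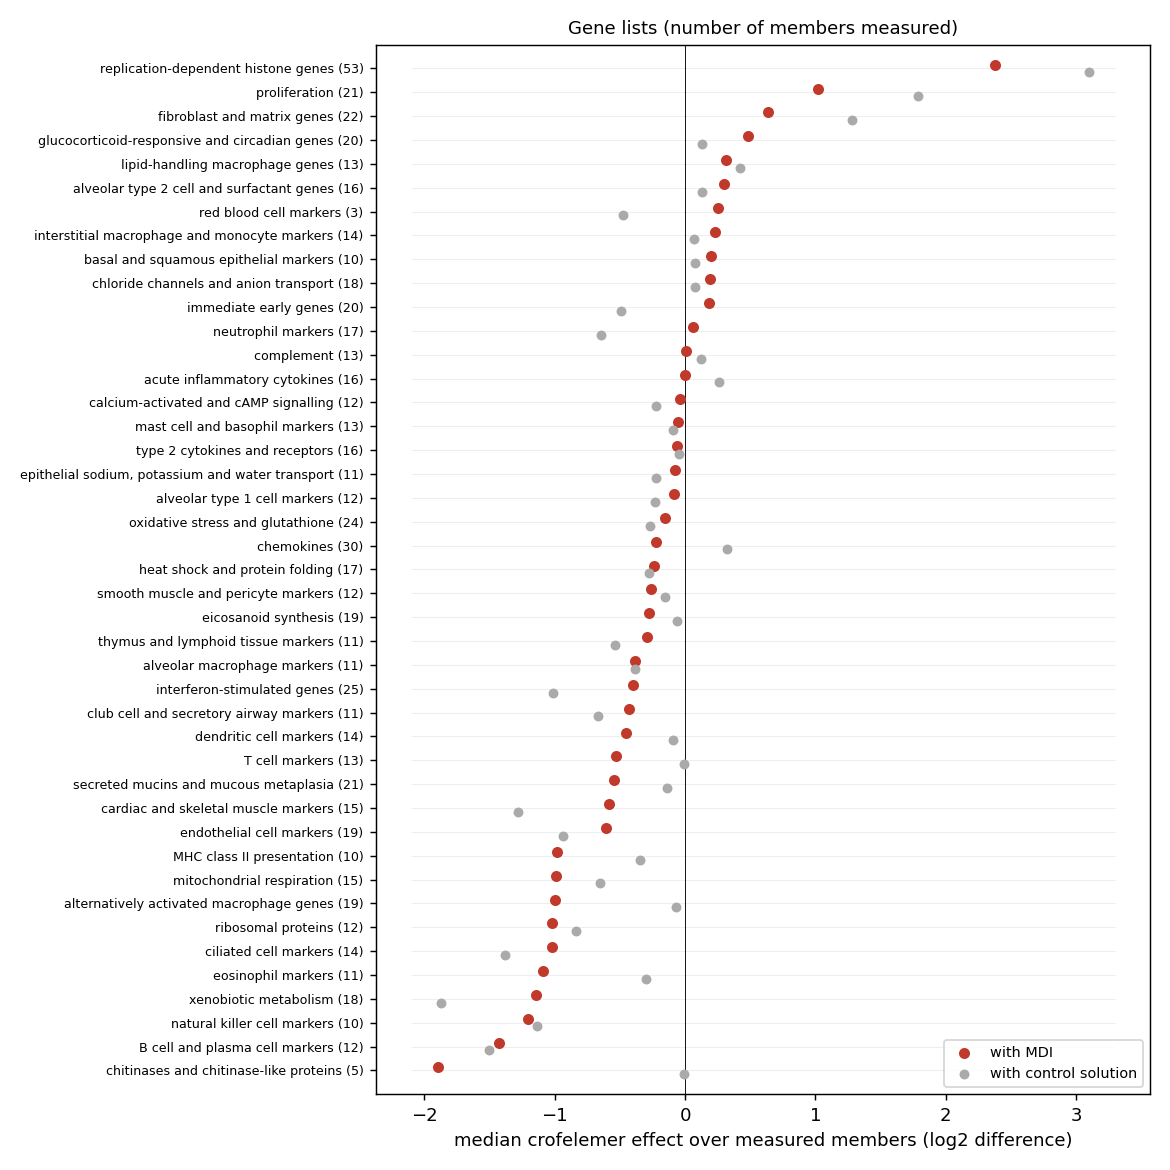
Median crofelemer effect (horizontal axis, log2 difference) over the measured members of each gene list, with MDI (red) and with control solution (grey). The number of measured members stands after each name. Medians with MDI and with control solution are -1.90 and -0.006 for chitinases, -1.09 and -0.30 for eosinophil markers, and -0.997 and -0.07 for alternative activation genes. In these lists the difference between the drug effects was called for 1 of 5, 1 of 11 and 3 of 19 members. Histone, proliferation, B cell and xenobiotic lists also lie on the same side under both.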

How the data were processed

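The deposited values are log2 signals of 22206 probe sets, made by the authors with Transcriptome Analysis Console, per the submitters' processing notes. The sources used here give neither its version nor how arrays were normalized, and the log base was inferred from the range of 1.86 to 20.91. Values above the log2 of a 16-bit reading mean that folds hold on the deposited scale. Nothing was rescaled. Of 51 arrays, 49 had a group and 2 had labels that contradict each other. Genes came from the platform annotation (1 symbol for 19572 probe sets, no symbol for 2634), and the brightest of several probe sets stood for a gene (55 symbols).

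limma 3.58.1 (R 4.3.3) fitted 8 group means to 49 arrays (41 residual degrees of freedom, intensity trend, 2-sided), with Benjamini-Hochberg adjustment over all probe sets and a threshold of 0.05. On simulated data with the same groups it recovered 90% of 2-fold and 100% of 4-fold changes, and for the difference between the drug effects 55% and 99%. False calls numbered 6 and 10. The simulation had independent noise, 100 changed probe sets of each size and no shift of the drug arrays as a set. Its percentages therefore need not hold for the deposited values. Arrays give no counts, so their number limits the precision.

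The genes named were, for the drug effect with MDI, up to 12 with the largest rise and 12 with the largest fall among called, properly named genes whose means lay at least 1 pooled SD apart, up to 4 members of each list described, by smallest adjusted p, and 16 airway genes. Members, lists and rules were chosen with earlier results of these data known, and the histone list, Scin, Igfbp3 and Epx after their values were seen. Deviations of same-numbered drug and MDI arrays correlated at 0.167, 0.166 and 0.105, and those of unlike-numbered ones at -0.267 to 0.166. These values do not settle whether the numbers pair arrays, and the labels name no shared litter or day. The paired and block fits are therefore given as alternatives only. The smallest SD of the difference between any 2 C57BL/6 arrays was 0.330, so no pair held the same values. The 3 blocks of consecutive records are called lots: the drug arrays with MDI are in lot 1, as are 12 of the 13 MDI arrays. Alternatives were centring, quantile normalization, a filter on dim probe sets, fewer arrays, array weights, no intensity trend, lot, array number as a block, a 2-fold limit and leaving out each array. Figures used matplotlib 3.10.9 in Python 3.11.15.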

Additional observations from a re-analysis of the deposited data

Results flagged for a closer look

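For 13 genes named in the report the crofelemer effect with MDI differed from the crofelemer effect with control solution by limma's test of the difference. Genes of the mucous and type 2 response had the lower value with MDI. Rnase2a and Muc5ac lay near the lower end of the scale with control solution, which leaves the size of their differences uncertain. The differences were -4.26 for Slc26a4 (pendrin), -3.97 for Rnase2a, -3.88 for Muc5ac, -3.87 for Mmp12, -3.54 for Retnla, -3.47 for Chia1, -3.16 for Ccl8, -2.54 for Alox15 and -2.29 for Fcgbp. For other genes they were -2.62 for the phospholipase Pla2g4c, -1.83 for Scin and -1.56 for Themis, and 2.48 for Igfbp3, the only one of the 13 with the higher value under MDI. Over all probe sets the called differences were 54 lower and 40 higher, a split that the 13 named genes do not show.

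The 2 C57BL/6 arrays whose labels contradict each other on the treatment entered no comparison. Clca1 was at 15.94 and 19.24 on them and Muc5ac at 7.85 and 11.99, above the highest C57BL/6 control array, 13.42 for Clca1 and 7.04 for Muc5ac.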

How the results depend on the processing

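Probe sets called for crofelemer with MDI numbered 7232, and 1994 of them were at least 2-fold. With the array number as a replicate block they numbered 4659 in the fit of 49 arrays and 2134 in the paired fit of 12 arrays. The same 12 arrays without the pairing gave 2207. What part the number and the choice of arrays had in the lower counts was not tested. Fits of 49 arrays with the block, and of 12 arrays without it, were chosen after seeing the data. Leaving out 1 array gave 4993 (without the first drug array) to 7786. The difference between the drug effects, called for 94 probe sets, numbered 10 with the 27 C57BL/6 arrays only, 53 with array weights, 8 in lot 1 only, 4 with the replicate block of 12 arrays, 4 in the same arrays unpaired, 211 with the block in 49 arrays, and 20 to 125 with 1 array left out. The cause was not tested. Where a value was near 0 its sign turned. The drug effect with MDI on Muc5b was 0.033 under each block fit and with the 12 arrays unpaired, and -0.77 to 0.10 with 1 array left out. That on Cftr was 0.24 in these fits and -0.38 to 0.027 with 1 array left out. The difference between the drug effects was 1.24 in lot 1, 1.94 in both fits of 12 arrays and 0.60 with the block in 49 arrays for Clca1, with -1.16 to 1.05 when 1 array was left out. For Ano1 it was -0.021 after centring, -0.11 in both fits of 12 arrays and -0.081 with the block in 49 arrays, and -0.025 to 0.12 when 1 array was left out. For Cftr it was -0.10 to 0.30 when 1 array was left out. None of these values passed the test in any fit. With 3 drug arrays, changes under 2-fold may be missed.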

Other observations

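On the same 2 arrays Retnla was at 18.26 and 19.13, Slc26a4 at 9.25 and 12.38, Chia1 at 10.08 and 11.46, and Ano1 at 14.83 and 14.58. No group was drawn from these values.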
